A study of Mus musculus with 17 samples.

Results

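The regions described here carried acetylated histone H3 in untreated Sirt6 knockout (KO) mouse embryonic stem cells, were called in no other acetylation library of the series, and lay outside every Sirt6 peak of wild-type (WT) cells. The 8 deposited peak lists for H3 acetylated at lysine 9 (H3K9ac) or lysine 56 (H3K56ac) were merged wherever peaks overlapped by 1 bp or more, which gave 6400 regions. Of these, 1590 (24.8%) held peaks of the untreated KO H3K9ac list, the untreated KO H3K56ac list or both, and of no other list. A WT Sirt6 peak overlapped 1221 of the 1590, and the remaining 369 regions, 23.2% of them (95% interval 21.2 to 25.3), are the subject of this report. The 369 were therefore chosen by the calls themselves, and their peak heights, folds and q-values are given as a description. A −log10 q of at least 10 was reached by 157 of the KO only regions, and 47.1% of those lay outside Sirt6 peaks. The share of 23.2% therefore depends on the weak calls. With all lists held to that limit the share was 61.0%. That setting also cut the other acetylation lists and the Sirt6 list, where 44.4% of peaks reached the limit.

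Sirt6 is a NAD-dependent deacetylase that removes acetyl groups from H3K9 and H3K56. H3K9ac is found mainly at active promoters and enhancers. H3K56 lies in the globular core of the histone near the entry point of nucleosomal DNA, and its acetylation accompanies nucleosome assembly and is also found at active regulatory regions. In embryonic stem cells Sirt6 is known to restrain pluripotency genes and, through them, the Tet enzymes that oxidise 5-methylcytosine to 5-hydroxymethylcytosine (5hmC). Acetylation that appears in KO cells away from Sirt6 peaks cannot be assigned to the loss of Sirt6 at that place from peak lists.

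Embryonic stem cells of the 129 mouse strain, WT or Sirt6 KO, were studied by ChIP-seq, which sequences the DNA bound to an immunoprecipitated chromatin protein. The cells were grown with LIF on irradiated fibroblasts that were removed by plating. For each of H3K9ac and H3K56ac there was 1 library of untreated WT, untreated KO, retinoic acid (RA) treated WT and RA treated KO cells. RA came from a 0.01 M stock diluted 10000-fold, was given for 2 days in medium without LIF, and cells were harvested a day after its removal. Sirt6 was profiled in untreated WT and KO cells, and 5hmC was profiled in untreated WT and KO cells by CMS-IP, which enriches bisulfite-converted 5hmC, with an input library for each. The KO allele and the number of independent lines are not given in the sources used here. Each of the 17 groups was 1 library, so differences between conditions have no replicate error and were not tested. All intervals are 95% intervals for counting error, and regions are not replicates.

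The WT Sirt6 list held 14510 peaks from 2008232 tags. Both KO Sirt6 lists held 0 peaks, so the antibody gave no called signal in cells without the protein. The KO Sirt6 libraries were far deeper, with 40006795 tags at the lower antibody amount and 48956556 at the higher. The untreated H3K9ac libraries had 7719553 (WT) and 7217855 (KO) tags after filtering, and the untreated H3K56ac libraries had 7790807 (WT) and 5782181 (KO). Fragments were estimated at 155 bp (H3K9ac) and 175 bp (H3K56ac) for untreated WT, and at 212 and 224 bp for untreated KO. In RA treated cells they were estimated at 198 and 207 bp for WT and 204 and 227 bp for KO, so the untreated WT libraries stood apart. The part of this difference in the KO only calls was not tested. A region without a peak in a list was not called there, which does not show that the mark, or Sirt6, was absent.

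H3K9ac made up most of the 369 regions. H3K9ac alone was called in 225 (61.0%, 55.9 to 65.8), H3K56ac alone in 105 (28.5%, 24.1 to 33.3) and both marks in 39 (10.6%, 7.83 to 14.1). Over all 6400 regions, where any of the 8 lists could supply a mark, these shares were 36.1%, 11.9% and 51.9%. The untreated KO lists differed in size, with 3593 peaks for H3K9ac and 2235 for H3K56ac. Regions of H3K56ac alone were a larger share here than among the 1221 KO only regions at a Sirt6 peak, where they were 17.0%, a difference of 11.4 percentage points (6.53 to 16.6). For regions of both marks the share at Sirt6 peaks was 8.85%, and the interval of the difference, -1.51 to 5.57 points, included 0. Regions of both marks were scarcer than among the 786 regions called only in untreated WT lists and free of Sirt6, where 21.5% carried both (difference -10.9 points, -15.0 to -6.45). This order turned when KO only regions had to hold a peak with a −log10 q of at least 10. That left 74 regions, 25.7% of them with both marks. A region of both marks could reach the limit with either peak, which by itself raises this share. The WT only regions were not cut, so this setting cannot decide the order. With all lists held to the limit, 12.5% of the KO only regions without Sirt6 carried both marks. An untreated KO peak of the other mark lay within 10000 bp of 8 of the 225 H3K9ac regions and of 5 of the 105 H3K56ac regions. An overlapping peak of the other mark places a region among those of both marks, which by itself lowers these counts. The same count was not made in another group.

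Away from Sirt6, regions called only in untreated WT outnumbered those called only in untreated KO. The untreated WT and KO libraries differed in depth and fragment estimate, and the part of this in the ratio below was not tested. Regions called only in untreated WT lists numbered 842 (13.2% of all 6400), of which 786 lay outside Sirt6 peaks, so the 369 KO only regions were 0.469 times as many (0.414 to 0.532). With regions at Sirt6 peaks included the order was the other way, with 1590 KO only regions (24.8%) against the 842. The order above thus follows from leaving out the 1221 KO only regions at Sirt6 peaks. Sirt6 peaks overlapped 26.9% of all regions. With all lists held to a −log10 q of at least 10, the KO only regions without Sirt6 fell to 144 and the ratio to 0.232.

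The calls in these regions were weaker than those of acetylation regions as a whole. Their median length was 224 bp, their median pileup at the summit 13 tags, their median fold over local background 7.08 and their median −log10 q 7.48. Over all 6400 regions the same medians were 254 bp, 18 tags, 9.23 and 12.9. Pileup, fold and q are the highest over the peaks of a region. In the 369 those peaks come from the untreated KO lists alone, and over all regions from up to 8 lists, which by itself raises the latter values. WT only regions without Sirt6 were shorter, with a median of 175 bp, and KO only regions at Sirt6 had a lower median fold, 5.70. A −log10 q of at least 10 was reached by 74 of the 369 (20.1%, 16.3 to 24.4), against 62.8% of all regions, 63.1% of WT only regions without Sirt6 and 6.80% of KO only regions at Sirt6. In the untreated KO H3K9ac list, 229 of the 264 peaks in these regions (86.7%) stood below the median of that list by q, as did 138 of the 144 H3K56ac peaks (95.8%) in theirs. Of these peaks 0 were in the top 10% of their list. Peaks no longer than the estimated fragment plus 1 bp, the shortest that were called, were 111 of the 264 H3K9ac peaks and 51 of the 144 H3K56ac peaks. In the whole untreated KO lists they were 527 of 3593 for H3K9ac and 287 of 2235 for H3K56ac. At KO only regions with Sirt6 they were 213 of 1013 and 84 of 316.

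**Figure D1:**
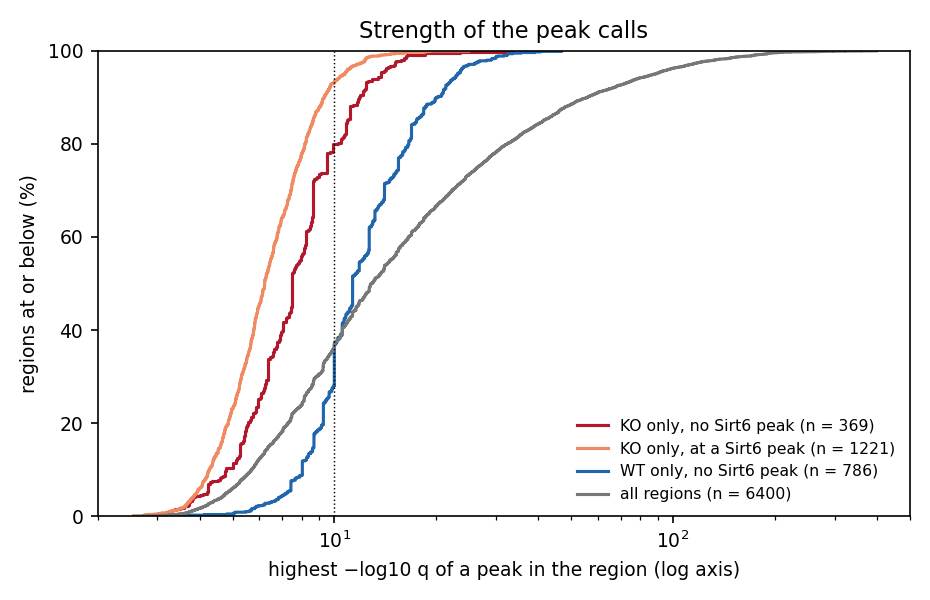
Cumulative share of regions (%) against the highest −log10 q of a peak in the region (log axis), by group of regions, with a dotted line at 10. The KO only regions without Sirt6 (median 7.48) lie between the KO only regions at Sirt6 (6.22) and the WT only regions without Sirt6 (11.3).

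Regions of both marks were the strongest class. The median fold was 6.65 for H3K9ac alone, 7.10 for H3K56ac alone and 8.25 for both marks. For both marks the higher of the 2 values was taken, which by itself raises that median; their H3K9ac folds had a median of 7.14 and their H3K56ac folds 7.67. A −log10 q of at least 10 was reached by 31 of 225, 24 of 105 and 19 of 39. In the 39 regions of both marks the fold was higher for H3K56ac in 23 and for H3K9ac in 16.

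The highest call of all was chr4:69778774-69779069, of both marks. Its fold was 16.5 for H3K56ac, with a −log10 q of 33.6 and a pileup of 33 tags, and 9.89 for H3K9ac. It lay 291944 bp from the nearest Sirt6 peak, and neither mark was called there in WT cells or after RA. Next among regions of both marks came chr14:101814069-101814331, at 11.7 for H3K56ac and 8.11 for H3K9ac. At chr12:69051163-69051440 the order was turned, with 10.98 for H3K9ac and 8.26 for H3K56ac. Folds at chr2:22058342-22058569 were 8.24 for H3K9ac and 10.5 for H3K56ac, and at chrX:33401326-33401575 they were 10.4 and 8.73. These 5 regions thus had no common order of the marks.

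Among regions of H3K9ac alone, chr3:44576926-44577145 stood apart with a fold of 13.7 and a −log10 q of 23.5. Its nearest WT peak was 65334 bp away. The next were chr3:61446640-61446901 at 10.4, chr10:81167526-81167778 at 10.04, chr3:61963021-61963305 at 9.92 and chr8:5138434-5138678 at 9.89. Of these 5, 3 were on chromosome 3. Among regions of H3K56ac alone the highest were chr16:69705749-69706008 at 11.2 and chr16:68916594-68916823 at 11.1, both on chromosome 16. They were followed by chr6:69902394-69902632 at 10.9, a region of the unplaced Y sequence at 10.4 and chr5:86797925-86798183 at 10.03.

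Although no region overlapped a Sirt6 peak, some lay directly beside one. The median distance to the nearest Sirt6 peak was 164123 bp (quartiles 25654 and 439404, 368 regions with a Sirt6 peak on their sequence). For WT only regions without Sirt6 the median was 299559 bp, and for the 2125 regions without Sirt6 called in untreated KO and in another list it was 311471 bp. Within 1000 bp of a Sirt6 peak lay 39 of the 369 (10.6%), against 3 of 786 WT only regions (0.382%), a difference of 10.2 points (7.35 to 13.7). Another 16 lay within 10000 bp, a further 101 within 100000 bp, and 212 beyond that. Within 10000 bp the shares were 14.9% (11.6 to 18.9) and 4.58%, a difference of 10.3 points (6.64 to 14.5). With all lists held to a −log10 q of at least 10, the Sirt6 list included, those shares were 4.86% (7 of 144) and 2.74%. Fewer Sirt6 peaks by themselves lower both shares. With that limit on the untreated KO peaks alone and the Sirt6 list whole, 8 of 74 regions (10.8%) lay within 10000 bp. The WT only regions, not cut in that setting, stayed at 4.58%. By class, 40 of the 225 H3K9ac regions, 12 of the 105 H3K56ac regions and 3 of the 39 regions of both marks lay within 10000 bp of Sirt6.

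**Figure D2:**
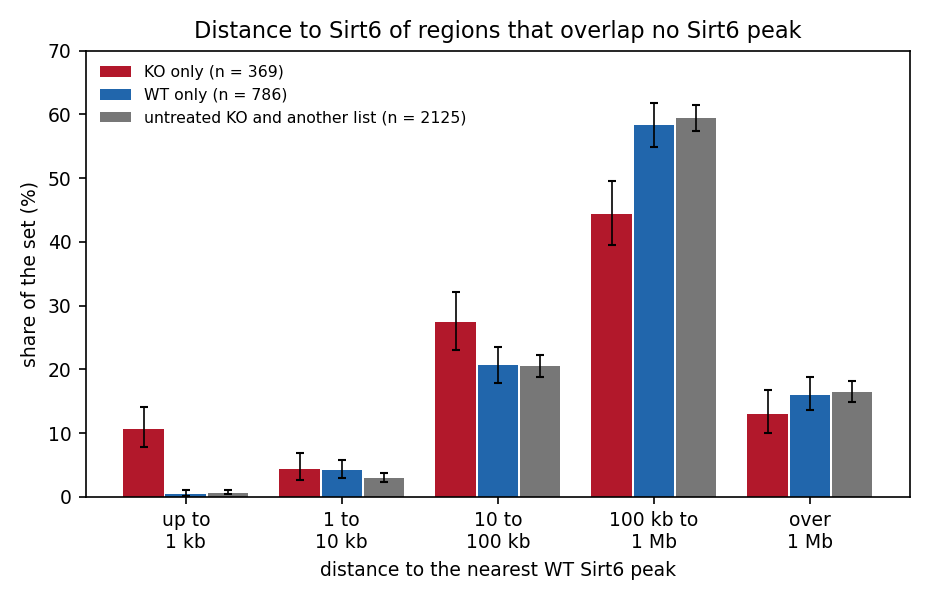
Share of each group of regions (%) by distance to the nearest WT Sirt6 peak, for regions that overlap none; lines are Wilson 95% intervals. The KO only regions without Sirt6 have 10.6% of their number within 1000 bp of a Sirt6 peak, against 0.382% of WT only regions.

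The nearest were chr1:88338877-88339095, 2 bp from a Sirt6 peak, chr12:19394080-19394330 and chr2:72313996-72314220, both at 12 bp, chr2:177812684-177812895 at 13 bp and chr8:13677183-13677418 at 23 bp. Their folds ran from 4.86 to 6.59, under the median of the 369. At the edge of the rule, the 14 regions within 100 bp of a Sirt6 peak had a median fold of 5.99. The 28 KO only regions that overlapped a Sirt6 peak by at most 100 bp, just on the other side, had a median of 5.55. By listed coordinates the farthest were 4 H3K9ac regions of the unplaced Y sequence, up to 11945410 bp away. Because that sequence is unplaced, these values cannot be read as distances along a chromosome. The farthest on a placed chromosome was chr15:19463475-19463686 at 5878796 bp.

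Regions far from Sirt6 lay in quieter surroundings than regions near it. The deposited fold is the pileup plus 1 over the local background plus 1, so the background that the peak caller used can be recovered from it. Among H3K9ac peaks of the 369 regions, 135 of 264 (51.1%, 45.1 to 57.1) had a background within 5% of the genome-wide floor, against 17 of 1013 (1.68%) at KO only regions with Sirt6. By distance, the floor was met by 3 of 30 peaks within 1000 bp of Sirt6, 3 of the next 13 within 10000 bp, 23 of the next 71 within 100000 bp and 106 of 149 beyond. The median background, relative to the floor, was 2.11 within 1000 bp, close to the 2.29 at Sirt6 itself, and 1.00 beyond 100000 bp. H3K56ac gave the same order, with 64 of 144 at the floor (44.4%), 0 of 10 within 1000 bp and 49 of 89 (55.1%) beyond 100000 bp. The bins of 5, 10 and 13 peaks are thin. WT only peaks without Sirt6 were at the floor in 346 of 629 (55.0%) for H3K9ac and 219 of 326 (67.2%) for H3K56ac. Median H3K9ac pileups were 13 tags in these regions and 15 at Sirt6; by its formula the fold is higher where the background is lower at the same pileup.

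**Figure D3:**
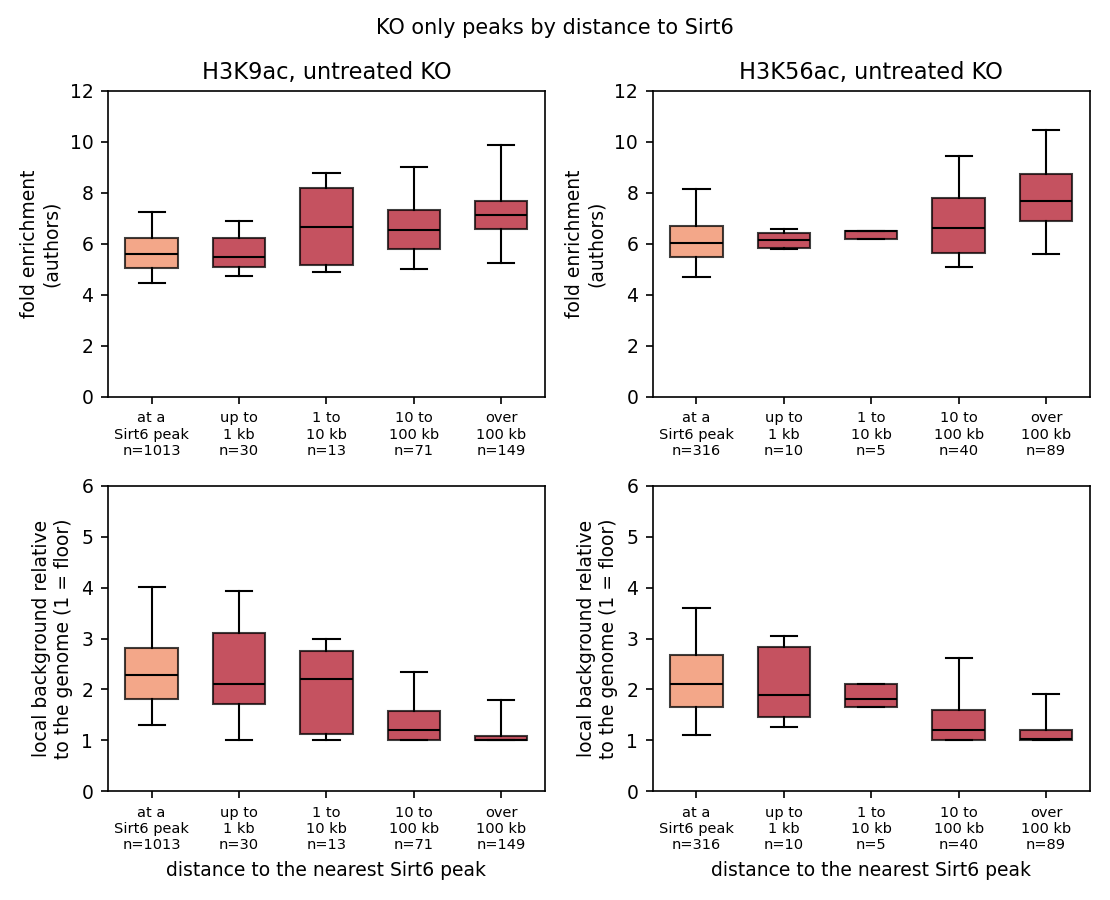
Authors' fold (top) and local background relative to the genome-wide floor (bottom) of untreated KO only peaks, by distance to the nearest Sirt6 peak; boxes are quartiles, whiskers the 5th to 95th percentiles, n the peaks. For H3K9ac the median background is 2.29 at Sirt6 and 1.00 beyond 100000 bp, and the median fold 5.60 and 7.14.

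Few of the regions lay next to acetylation called in another library. A peak of the other 6 lists lay within 1000 bp of 9 regions (2.44%), within 10000 bp of 33 (8.94%) and within 100000 bp of 141 (38.2%). At 10000 bp the share was higher than at KO only regions with Sirt6 (3.03%), by 5.91 points (3.17 to 9.36). The closest was chr12:92712192-92712403, 25 bp from a peak of another list, and the closest to a WT peak was chr4:148000907-148001145, at 67 bp. The median distance from 1 region to the next was 2339008 bp. Another of the 369 lay within 100000 bp of 27 regions. Among the 786 WT only regions without Sirt6, 85 had another of their own set that near. A larger set by itself has more such neighbours, so these counts do not compare clustering. Of 336 bins of 1000000 bp that held any, 305 held 1, 29 held 2 and 2 held 3. One of the latter, on chromosome 3 from 96000001 to 97000000, held chr3:96218337-96218569, chr3:96290654-96290865 and chr3:96292384-96292635, which lay 8459 to 12285 bp from Sirt6. The other, on chromosome X from 72000001 to 73000000, held 3 regions 151216 to 219593 bp from Sirt6. The third bin by the naming order, on chromosome 1 from 53000001 to 54000000, was 1 of the 29 that held 2.

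The regions were spread over all 19 autosomes and chromosome X, with the most on chromosome 2 (30) and chromosome 4 (29). The X held 25 of the 369 (6.78%, 4.63 to 9.81), against 7.48% of all 6400 regions and 9.54% of WT only regions without Sirt6 (difference -2.77 points, -5.88 to 0.793). KO only regions at Sirt6 had 0.737% on the X, but Sirt6 peaks themselves were scarce there (256 of 14510), and the rule splits KO only regions by those peaks. Chromosome 16 held 23 regions (6.23%), against 3.44% of all regions and 2.42% of WT only regions, a difference of 3.82 points from the latter (1.38 to 6.89). From KO only regions at Sirt6, with 4.10% on chromosome 16, the difference was 2.14 points, and its interval (-0.265 to 5.24) included 0. KO only regions per WT only region, both without Sirt6, ran from 0.293 (0.160 to 0.510) on chromosome 1 to 1.50 (0.564 to 4.23) on chromosome 19, with 1.21 (0.631 to 2.35) on chromosome 16. These were the highest and lowest of 20 chromosomes compared, and the intervals are not adjusted for that. Another 11 regions (2.98%) lay on Y, unplaced or mitochondrial sequence, against 3.05% of WT only regions and 3.88% of all regions; 8 of the 11 were on unplaced Y sequence and 1 on mitochondrial DNA.

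**Figure D4:**
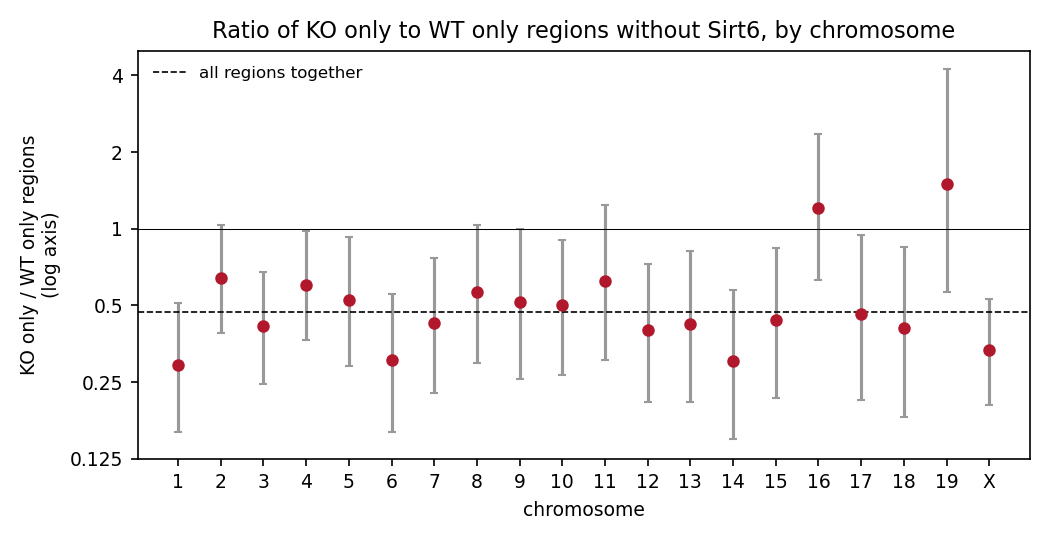
Number of KO only regions without Sirt6 divided by WT only regions without Sirt6, by chromosome, on a log axis with exact 95% intervals; the dashed line is the ratio over all regions, 0.469. Chromosomes 16 (1.21) and 19 (1.50) lie above 1 with intervals that include 1.

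CMS-IP windows overlapped few of the regions, though a larger share than in the groups compared. The authors' deposited table lists 3780 windows of 500 bp with KO and WT read counts, 58.7% of them higher in KO. Its largest unadjusted p is 0.000998, from 1 library per genotype, and 139 windows have an adjusted p under 0.1 in it. Such a window overlapped 9 of the 369 regions (2.44%, 1.29 to 4.57), against 0.5% of all 6400 regions, 4 of 1221 at Sirt6 (0.328%, difference 2.11 points, 0.852 to 4.25) and 1 of 786 WT only regions (0.127%, difference 2.31 points, 1.02 to 4.45). Within 10000 bp the share was 4.07%, against 4.26% at Sirt6, a difference of -0.194 points (-2.23 to 2.53), 1.65% of WT only regions and 2.48% of all regions. Within 100000 bp it was 19.8%, against 29.5% at Sirt6, a difference of -9.70 points (-14.3 to -4.67), and 8.40% of WT only regions, a difference of 11.4 points (7.07 to 16.1). Over all regions it was 14.8%, so the 369 lay between those groups. The nearest window within 100000 bp was higher in KO for 42 regions and lower for 31, against 254 and 106 at Sirt6 and 566 and 380 over all regions. Of the 9, 6 lay at windows lower in KO and 3 at windows higher in KO; of all 32 regions that overlapped a window, 24 lay at lower ones.

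The strongest was chr11:97929050-97929273, of H3K56ac alone with a fold of 5.44. In the authors' deposited table its window had 7 KO and 72 WT IP reads, with 7 and 11 input reads, and a log2 fold change of -3.09 with an adjusted p of 1.45e-05. The windows of the other 8 regions had an adjusted p of 1 in the authors' deposited table. At chr14:101814069-101814331, the region of both marks named above, that table gives 45 KO and 114 WT IP reads over 8 and 18 input reads. Read counts are not scaled for library depth. In RPKM of that table, IP there was 7.89 in KO and 16.9 in WT. Input was 0.669 and 2.17, so it was lower in KO as well. At chrX:100650985-100651269 the order was turned, with 24 KO and 6 WT IP reads over 45 and 34 input reads in the authors' deposited table. Lower KO counts stood at chr4:13975545-13975885 (0 KO and 14 WT), chr15:3870558-3870800 (3 and 24) and chr17:17134299-17134526 (2 and 18), all H3K56ac alone. Higher KO counts stood at chr6:141702244-141702455 (28 and 9) and chr3:37380384-37380595 (16 and 2), both H3K9ac alone. Input reads there were 7 and 2, and 7 and 6. The H3K9ac region chr17:39985432-39985666 overlapped 2 windows lower in KO, with log2 fold changes of -0.57 and -0.78 in the authors' deposited table. In that table the input RPKM of both windows was lower in KO as well, 34.5 against 49.2 and 20.1 against 29.6.

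**Figure D5:**
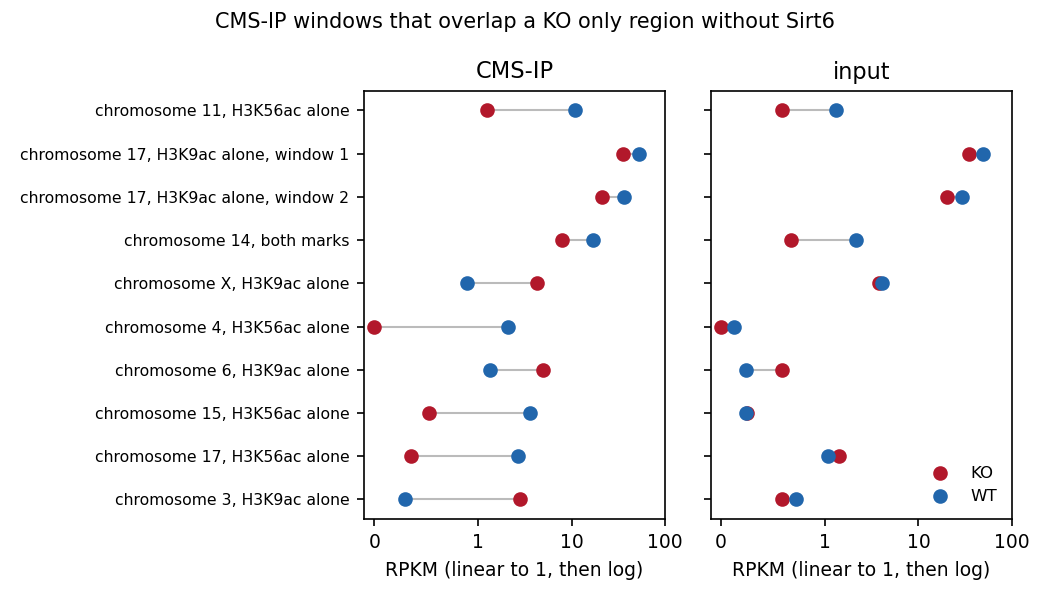
RPKM of CMS-IP and of input in KO and WT (linear to 1, then log) at the 10 windows that overlap the regions, from the authors' deposited table. The chromosome 11 window has 1.23 RPKM in KO IP and 10.7 in WT IP, and the 2 windows of the H3K9ac region on chromosome 17 have the highest input.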

How the data were processed

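The submitters' processing notes give mm9, BWA 0.5.9, MACS2 2.0.10 and Picard for the ChIP-seq libraries, and edgeR for CMS-IP. Peaks were called per library at q 0.01, the acetylation lists with no control library and a local window of 10000 bp, per the file headers. For each peak the authors deposited the pileup signal, the −log10 p and −log10 q, and the fold over local background. For each CMS-IP window the authors deposited read counts, RPKM, a log2 fold change, a p-value and an adjusted p. Those p-values come from 1 library per genotype.

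Merging, distances and counts were computed with pandas 2.3.3, numpy 2.4.6 and scipy 1.17.1 under Python 3.11.15, and plotted with matplotlib 3.10.9, and tested on simulated data. Intervals were Wilson for a share, Newcombe for the difference between shares and exact Clopper-Pearson for a ratio. The local background was taken as (pileup + 1) / fold − 1. Regions were named by rule: the 5 highest folds per class of marks, the 5 nearest to and 5 farthest from Sirt6, up to 10 regions overlapping CMS-IP windows, and the 3 bins of 1000000 bp with the most regions. The 2 regions nearest another list's peak were chosen after their values were seen. Genes were not assigned, because no mm9 gene positions were used here. The regions and comparisons were chosen with earlier results of these data known.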

Additional observations from a re-analysis of the deposited data

How the results depend on the processing

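Each library was the only one of its group, so no library could be left out. No paired analysis was possible because each group held 1 library. The number of regions, 369, became 144 with a −log10 q of at least 10 in all lists, the Sirt6 list included. It became 74 with that limit on the highest untreated KO peak of a region alone, with WT only regions uncut. It was 244 with acetylation lists cut to 2063 peaks and 834 from the 4 untreated lists alone. Under these settings the share of KO only regions without Sirt6 was 61.0%, 47.1%, 45.4% and 38.8%. It was 25.5% with an overlap of 50% of the shorter interval and 20.8% with Sirt6 peaks within 1000 bp counted as overlapping. The ratio to WT only regions was 0.232, 0.0941 and 0.567 under the stricter limit on all lists, that limit on KO peaks alone and untreated lists alone. The share with both marks was 12.5% with the limit on all lists and 28.7% from untreated lists alone. With the limit on KO peaks alone it was 25.7%, above the 21.5% of the uncut WT only regions. In that setting regions of both marks could pass with either peak. The median distance to Sirt6 was 395432, 223562, 119836, 213202 and 246081 bp under the stricter limit on all lists, on KO peaks alone, overlap of 50%, lists of equal length and untreated lists alone. The share near a CMS-IP window was 19.8% within 100000 bp and 0.542% with windows of adjusted p under 0.1. The untreated lists alone and peaks resized to 200 bp were settings chosen after seeing the data. Of the 369 regions, 74 were kept under the stricter limit on all lists and 158 with lists of equal length. The low summit pileups, with a median of 13 tags, limit how firmly any single call can be read.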

Other observations

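The region chr17:39985432-39985666, of H3K9ac alone, had a pileup of 91 tags at a fold of 2.98, the highest pileup and the lowest fold of the 369. It overlapped 2 CMS-IP windows, and in the authors' deposited table these had 413 and 241 KO input reads and 409 and 246 WT input reads, against medians of 19 and 17 over all windows. Their KO and WT IP reads were 200 and 353 in the first and 120 and 245 in the second. These counts are not scaled for library depth. In RPKM of that table, KO and WT IP were 35.0 and 52.5 in the first window, with input of 34.5 and 49.2. In the second, IP was 21.0 and 36.4 and input 20.1 and 29.6, so input was lower in KO as well. The region of H3K9ac on mitochondrial DNA, from 15429 to 15648, had a pileup of 29 tags and a fold of 3.55.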
